A study of Rattus norvegicus with 2 samples.

Results

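Genes of DNA repair were described in urinary bladder RNA of male F344 rats. There were 2 expression arrays, 1 with pooled RNA of 7 control rats and 1 with pooled RNA of 7 rats given dimethylarsinic acid (DMA), a methylated arsenic compound, at 200 ppm in the drinking water for 4 weeks. Controls received water with 0 ppm. Per the labels both groups began at 6 weeks and were 10 weeks old at sampling, whereas the methods of the study describe older rats and epithelial cells swirled off the inverted bladder, so the tissue fraction behind the RNA is not settled by the sources. The question here was whether the repair genes tied to the cell cycle moved with DMA, compared with the excision repair genes. Of 47 listed genes, 45 were represented by a transcript cluster (a probe group covering a whole transcript) with a single gene symbol, among 22093 named genes in all. Xrcc3 and Ercc2 had no such cluster and were not analysed here. Each of the 45 genes had exactly 1 cluster, and no minimum of signal was set.

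Cells mend broken and modified DNA by several routes. Homologous recombination copies the missing sequence from the sister chromatid and works in S and G2 phase, and the Fanconi proteins clear crosslinks that block replication forks and hand the break to recombination. Base excision repair and nucleotide excision repair cut out damaged bases or bulky lesions in any phase of the cycle. Several recombination and Fanconi genes are transcribed under E2F factors when a cell commits to replication, and bladder urothelium is normally a slowly dividing tissue.

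The deposited signals had been normalized between the 2 arrays, so their likeness over all genes was partly built in. Over all 68842 clusters the median signal was 49.7 (control) and 53.2 (DMA), signals of at least 100 made up 36.1% and 36.2% of clusters, and the log2 ratio of DMA over control had a median of 0.03 over named genes. Differentiated urothelium markers such as uroplakins and keratins were bright, with a summed signal of 1960102 and 2064727 over 15 genes and a median log2 ratio of 0.03. Among them, 1 gene was at least 1.5-fold higher (Krt18, 58734 and 94342) and 1 at least 1.5-fold lower (Krt20, 4469 and 1905). Of 8 measured basal urothelium markers 1 was at least 1.5-fold higher (Krt14, 1752 and 4840). Their median log2 ratio was 0.33, 7 of the 8 were above 0, and their summed signal was 106381 and 114291. Markers of the bladder wall were lower in the DMA pool, at least 1.5-fold for 14 of 16 fibroblast and matrix genes (464741 and 223882), 2 of 11 smooth muscle genes (768159 and 590865), 5 of 11 leukocyte genes (7749 and 4449) and 2 of 8 endothelial genes (6630 and 5110). Over all named genes, 1.81% were at least 1.5-fold higher and 3.06% were at least 1.5-fold lower. In pooled tissue RNA, fewer cells of a type and less RNA per cell cannot be told apart. The part of cell makeup in the values of the repair genes was not tested. Each group has a single array, so no replicate error or test exists and each difference is one between 2 pools.

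No repair gene differed by 1.5-fold between the pools in either direction, and the log2 ratios of the 45 genes ran from -0.18 to 0.43. The median was 0.04 (quartiles -0.05 and 0.19), and 29 genes were above 0 while 16 were below. The quartiles of all named genes were -0.11 and 0.16. At the thresholds of the study, that is 2-fold or more together with a Z score beyond 2, 0 of 45 genes were higher and 0 were lower, beside 0.281% and 0.756% of all named genes. At 1.5-fold the counts were again 0 and 0, beside 1.81% of all named genes higher and 3.06% lower. Shares of this size would place only a few of 45 genes past the fold, so the 0 counts stand near the background. Here the Z score is the distance of a gene's log2 ratio from the mean of the 500 genes nearest in signal, in units of their SD, and it ran from -0.60 (Rad54l) to 1.67 (Bard1).

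**Figure D1:**
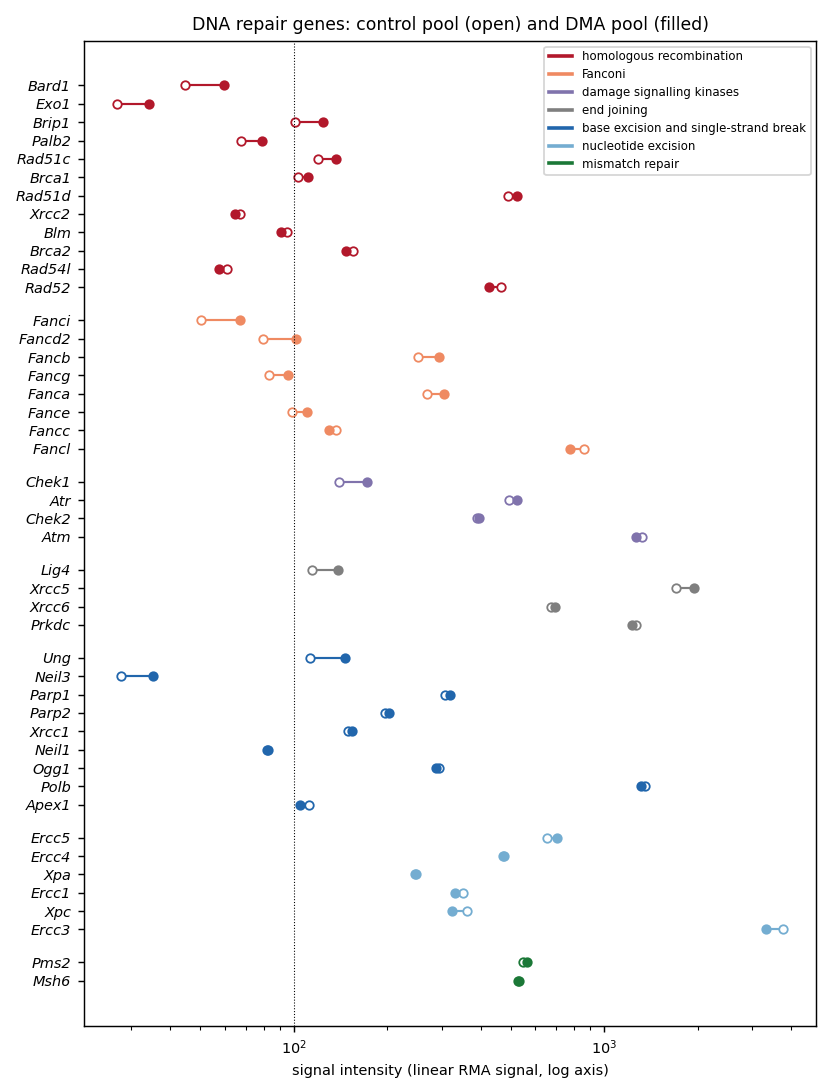
Signals of the 45 repair genes, 1 row per gene and grouped by role, with the control pool as an open point and the DMA pool as a filled point on a logarithmic axis of linear signal intensity; the dotted line marks a signal of 100. The pairs lie close together for all genes, and the widest gaps are those of Bard1 (44.5 and 59.8) and Fanci (50.2 and 67.0).

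Promoters of 5 genes are shown as examples of sequences with and without the motif that was searched for in all of them: the 3 recombination or Fanconi genes with the highest ratio whose promoter holds an E2F-type motif, and the 2 excision genes with the brightest signal and an entry in the RefSeq promoter table of the GRCr8 build. The motif and the ratio chose the first 3, so neither is a finding about them. Each runs 5′ to 3′ on the strand of the gene, from 250 bases before the transcript start to 30 bases after it, and capitals mark the E2F-type motif (TTTGGCGC, TTTCCCGC, TTTCGCGC or TTTGCCGC, or the reverse complement). Bard1 lies on the minus strand at chr9:80143726-80144005, Fancd2 on the plus strand at chr4:148234458-148234737, Rad51d on the minus strand at chr10:68321873-68322152, Ercc3 on the plus strand at chr18:24157581-24157860 and Ercc5 on the plus strand at chr9:53801221-53801500.
Bard1: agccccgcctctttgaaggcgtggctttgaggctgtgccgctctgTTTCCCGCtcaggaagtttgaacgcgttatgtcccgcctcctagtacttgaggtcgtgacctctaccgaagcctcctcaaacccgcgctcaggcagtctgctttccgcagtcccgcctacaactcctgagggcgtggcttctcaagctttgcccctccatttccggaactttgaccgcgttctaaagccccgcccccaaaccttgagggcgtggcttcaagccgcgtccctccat
Fancd2: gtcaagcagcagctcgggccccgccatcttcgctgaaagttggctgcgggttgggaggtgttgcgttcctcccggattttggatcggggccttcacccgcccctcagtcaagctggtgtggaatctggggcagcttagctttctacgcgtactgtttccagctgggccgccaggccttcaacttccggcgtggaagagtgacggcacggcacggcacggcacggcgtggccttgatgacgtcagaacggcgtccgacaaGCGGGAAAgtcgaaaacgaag
Rad51d: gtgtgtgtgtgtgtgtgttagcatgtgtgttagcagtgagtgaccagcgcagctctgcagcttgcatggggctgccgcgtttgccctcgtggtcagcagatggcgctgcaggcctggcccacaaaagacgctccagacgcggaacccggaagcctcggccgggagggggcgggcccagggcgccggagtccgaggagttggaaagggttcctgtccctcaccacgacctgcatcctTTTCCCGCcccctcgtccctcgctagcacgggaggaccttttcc
Ercc3: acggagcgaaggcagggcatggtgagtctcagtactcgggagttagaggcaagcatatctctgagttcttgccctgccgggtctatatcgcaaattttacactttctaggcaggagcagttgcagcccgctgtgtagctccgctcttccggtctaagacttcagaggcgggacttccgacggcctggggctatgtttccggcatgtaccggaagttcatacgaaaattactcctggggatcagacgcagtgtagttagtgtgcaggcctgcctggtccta
Ercc5: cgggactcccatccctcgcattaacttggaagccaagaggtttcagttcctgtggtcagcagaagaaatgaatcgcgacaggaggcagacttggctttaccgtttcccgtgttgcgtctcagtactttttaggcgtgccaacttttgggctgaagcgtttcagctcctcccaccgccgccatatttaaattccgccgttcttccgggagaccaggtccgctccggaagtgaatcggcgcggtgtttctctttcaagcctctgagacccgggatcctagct

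Log2 ratios of the homologous recombination genes ran from -0.12 to 0.43. Bard1, the partner of Brca1 in its ubiquitin ligase, gave signals of 44.5 (control) and 59.8 (DMA), a ratio of 1.34 and the highest of all 45 genes. The nuclease gene Exo1, which resects break ends, gave 27.0 and 34.3 (ratio 1.27), and the helicase gene Brip1 gave 101 and 124 (ratio 1.23). These were the 3 recombination genes of 12 that were at least 1.2-fold higher (25.0%, beside 12.6% of all named genes), a bound chosen after the values were seen. Signals of Bard1 and Exo1 were under 100 on both arrays. Brca1 itself, which directs breaks into recombination, gave 103 and 111, and its bridging partner Palb2 gave 67.7 and 79.2. Brca2, a large protein needed for recombination, gave 155 and 147, a log2 ratio of -0.08. Brca1 and Palb2 were thus above 0 and Brca2 below, with Z scores of 0.49, 0.72 and -0.09. Differences of this size between 2 pools do not settle a direction.

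Rad51c, Rad51d and Xrcc2, which act early in recombination, lay on both sides of 0. Rad51c was at 119 and 136 (log2 ratio 0.19), Rad51d at 488 and 524 (0.10) and Xrcc2 at 67.0 and 64.9 (-0.05). The strand-annealing gene Rad52 had the lowest log2 ratio of the recombination genes, at -0.12 with 463 and 426. Rad54l, a motor protein that remodels the joint between strands, was at 60.7 and 57.3, and the helicase gene Blm was at 95.2 and 91.2. Over the 12 genes the median log2 ratio was 0.11, with 7 above 0 and 5 below.

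Of all roles, the Fanconi genes had the highest median log2 ratio, at 0.19, with 6 of 8 genes above 0. Fanci and Fancd2 encode the clamp that is ubiquitinated at a stalled fork, and they stood highest: Fanci at 50.2 and 67.0 with a ratio of 1.33. Fancd2 gave 79.8 and 102, a ratio of 1.27. Within the core complex that modifies the clamp, Fancb (252 and 294), Fancg (83.5 and 95.5), Fanca (269 and 304) and Fance (98.8 and 110) had log2 ratios between 0.16 and 0.22. Fancc was at 137 and 130. The catalytic ubiquitin ligase gene Fancl was at 858 and 776, the lowest log2 ratio of this group (-0.14). The 2 clamp genes were the only Fanconi genes of 8 at least 1.2-fold higher (25.0%, beside 12.6% of all named genes). The control signals of both were under 100, and so was the DMA signal of Fanci. Over the 4 Fanconi genes with both signals at 100 or more, the median was 0.053, below the 0.11 of the 6 recombination genes of that class.

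**Figure D2:**
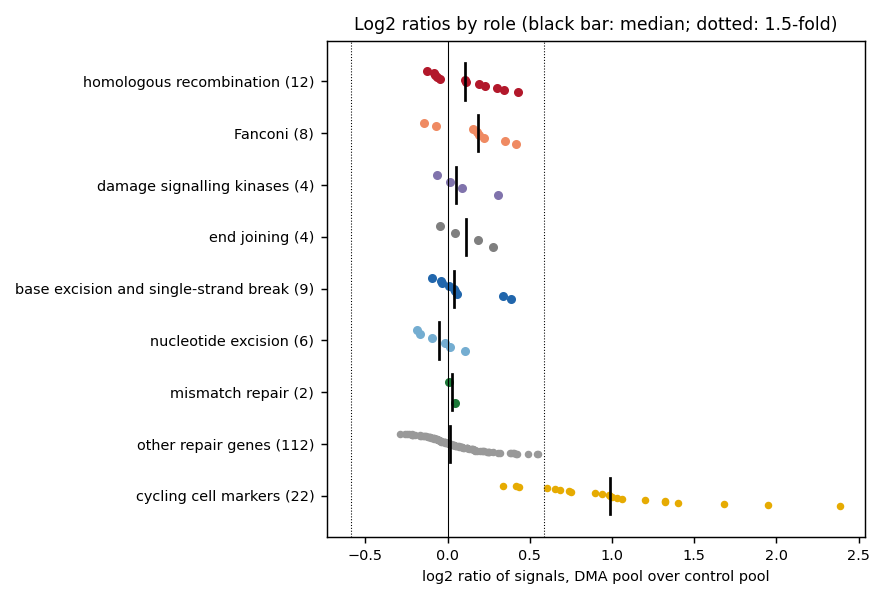
Log2 ratios of DMA over control for the repair genes by role, for 112 other repair genes and for 22 markers of cycling cells; 1 point is 1 gene, black bars are medians and dotted lines mark 1.5-fold. All repair genes lie inside the dotted lines, whereas 19 of 22 cycling cell markers lie to the right of them.

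The damage signalling kinases and the end joining genes each held 1 of 4 genes at 1.2-fold or more (25.0%). Over all named genes, 12.6% were that much higher. Chek1, the kinase that restrains cells with stalled forks, gave 140 and 173 (ratio 1.23). Atm and Atr, the kinases that sense breaks and stalled forks, gave 1327 and 1267 and 492 and 522. Chek2, which Atm activates, gave 389 and 393. The checkpoint kinase of the replication branch was thus the one with the higher value, while Atr above it was at a log2 ratio of 0.09. In end joining, the ligase gene Lig4 gave 114 and 139 (ratio 1.21). The Ku subunit genes Xrcc5 and Xrcc6 gave 1705 and 1938 and 674 and 696, log2 ratios of 0.19 and 0.04, and Prkdc, the kinase they recruit, gave 1264 and 1225. End joining works throughout the cycle, and its median of 0.11 lay beside that of recombination.

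Excision repair genes were close to 0, with Ung and Neil3 as exceptions. Ung removes uracil from DNA, in part behind the replication fork, and gave 112 and 147, a ratio of 1.31. Neil3, a glycosylase tied to dividing cells and crosslink repair, gave 27.9 and 35.2 (ratio 1.26), with both signals under 100. Its relative Neil1, a glycosylase for oxidised bases, was at 82.3 and 82.8. The remaining base excision genes lay between -0.09 and 0.06 on the log2 scale. Parp1 and Parp2, sensors of strand breaks, were at 307 and 320 and at 196 and 203. The scaffold gene Xrcc1 was at 149 and 154, and Polb, which fills the gap, was at 1349 and 1311. Ogg1, which removes oxidised guanine, was at 294 and 287, and Apex1, which cuts the abasic site, at 112 and 105.

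Nucleotide excision genes had the lowest median of the roles, -0.05, and 4 of 6 were below 0. Ercc3, a helicase of the transcription factor TFIIH, gave 3766 and 3315 and had the lowest log2 ratio of all 45 genes (-0.18). The lesion sensor gene Xpc followed, with 362 and 323 (-0.17). The nuclease genes Ercc1 and Ercc4, which cut as a pair, were at 352 and 330 and at 471 and 476, and the scaffold gene Xpa was at 248 and 246. Ercc5, the nuclease of the other side of the lesion, had the highest log2 ratio of this role at 0.11 (652 and 703). No nucleotide excision gene of 6 reached 1.2-fold in either direction, beside 12.6% of all named genes higher and 11.2% lower. The mismatch repair genes Msh6 (528 and 531) and Pms2 (549 and 566) had log2 ratios of 0.01 and 0.04.

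Set against each other, the 12 recombination genes had a median log2 ratio of 0.11 and the 15 excision genes one of 0.01. The difference was 0.10, and the lists overlapped: 1 recombination gene, Bard1, lay above every excision gene and 0 lay below every one. With the Fanconi genes added, the difference was 0.16 and 2 of 20 genes, Bard1 and Fanci, lay above every excision gene. The highest excision gene was Ung, at a ratio of 1.31. Of all named genes, 12.6% were at least 1.2-fold higher and 1.81% at least 1.5-fold higher. Relative to the median of the 500 genes nearest in signal to each gene, the difference was 0.11 for the recombination genes alone. With the Fanconi genes it was 0.16 on that scale. Genes are not replicates of a treatment, so no error or p can be given for these differences.

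At 1.2-fold, 9 of 45 genes were higher (20.0%), beside 12.6% of all named genes, and 0 of 45 were lower, beside 11.2%. Over the 16318 named genes within the signal range of the repair genes, the shares were 10.8% higher and 12.6% lower. The 9 were Bard1, Fanci, Ung, Fancd2, Exo1, Neil3, Chek1, Brip1 and Lig4. After the arrays were centred on the median of all clusters, a shift of 0.10 (log2), 3 genes were higher (6.67%, beside 6.61% of all named genes) and 2 lower (4.44%, beside 18.5%). The bound of 1.2-fold just takes in Lig4 (ratio 1.21) and leaves out Palb2 (1.17).

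Ratios also went with signal. Of the 9 genes, 4 had both signals under 100 and 1, Fancd2, had only the DMA signal at 100 or more. Among the 10 repair genes with both signals under 100, 4 were at least 1.2-fold higher (40.0%, beside 19.5% of all named genes of that class), and among the 33 with both at 100 or more there were 4 (12.1%, beside 5.56%). Across the 45 genes the log2 ratio and the mean log2 signal had Pearson's r = -0.52 and Spearman's rho = -0.45, and across all 22093 named genes -0.29 and -0.37. These are correlations over genes of the same 2 arrays. Of the 20 recombination and Fanconi genes, 8 had both signals under 100, as against 2 of the 15 excision genes. The part of signal in the difference between recombination and excision genes was not tested beyond the comparison with genes of like signal.

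**Figure D3:**
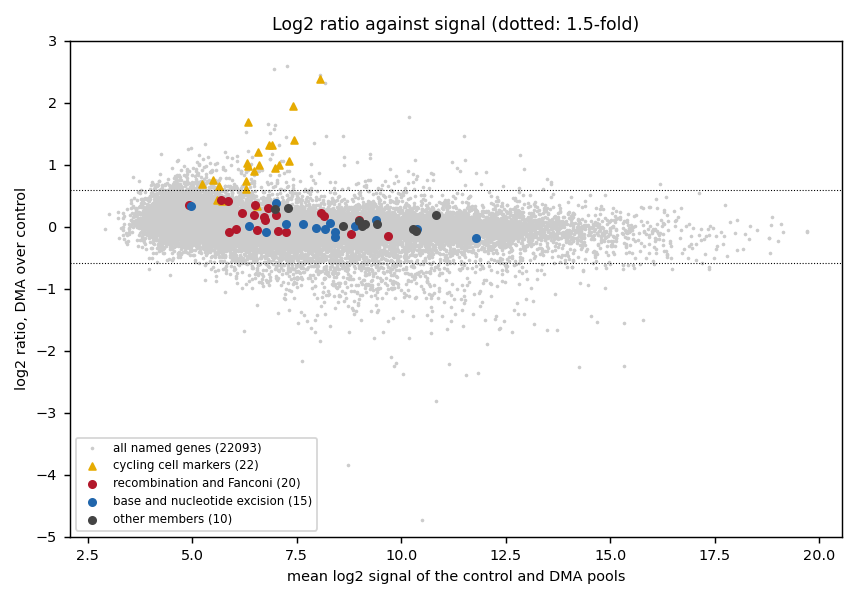
Log2 ratio of DMA over control against the mean log2 signal of both pools for all 22093 named genes (grey), with the recombination and Fanconi genes in red, excision genes in blue, the remaining repair genes in black and the cycling cell markers as yellow triangles; dotted lines mark 1.5-fold. Repair genes lie within the grey cloud at every signal, while 19 of 22 cycling cell markers lie above the upper dotted line.

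Markers of cycling cells moved apart from the repair genes. The proliferation antigen gene Mki67 was at 117 and 611 and the topoisomerase gene Top2a at 86.5 and 335. Of 22 such markers, most of them mitotic genes, 19 were at least 1.5-fold higher (86.4%, beside 1.81% of all named genes). All 22 were above 0, beside 55.9% of all named genes. Their median log2 ratio was 0.99 and their summed signal was 1507 and 3556. Of these 22, 3 had both signals at 100 or more. Their median lay 0.88 above that of the recombination genes, and 20 of 22 lay above every recombination gene. The highest recombination gene was Bard1, at a ratio of 1.34. Of all named genes, 12.6% were at least 1.2-fold higher and 1.81% at least 1.5-fold higher. The lowest cycling marker was Aurka at 0.34, below Bard1, Fanci, Ung, Fancd2 and Exo1.

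Genes of the repair network outside the 45 ran from -0.29 to 0.55 on the log2 scale. Signals existed for 112 of 119 such genes listed by role, with 0.01 as the median on that scale. At 1.5-fold, 0 of the 112 were higher, beside 1.81% of all named genes, and 0 were lower, beside 3.06%. At 1.2-fold, 12 were higher (10.7%, beside 12.6% of all named genes) and 1 was lower (0.893%, beside 11.2%). The highest were Mms22l, a partner of recombination at stalled forks (87.1 and 128), and Pole, the leading strand polymerase (70.0 and 102). The next were Ube2t, the ubiquitin-conjugating enzyme of the Fanconi pathway (46.5 and 65.3), and the junction resolvase gene Gen1 (100 and 135). The lowest were the nuclease gene Apex2 (369 and 302), the TFIIH kinase subunit genes Cdk7 (1681 and 1407) and Ccnh (741 and 630), and Cetn2, a partner of Xpc (744 and 628).

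The promoters of the repair genes and of the cycling cell markers differed in the motifs they held. RefSeq promoters of 300 bases were matched for 38 of the 45 genes by gene identifier; Xrcc2, Blm, Chek2, Prkdc, Neil3, Polb and Xpa had no entry. An E2F-type motif stood on either strand in 9 of 38 (23.7%), beside 2.14% of all 33469 promoters and 4.36% of the 13885 with at least 10 CpG. The repair promoters were rich in CpG, with a median of 21 per promoter against 7 over all. By role, the motif was in 2 of 10 recombination, 3 of 8 Fanconi, 1 of 12 excision, 2 of 3 kinase, 0 of 3 end joining and 1 of 2 mismatch repair promoters. The 9 genes were Bard1, Rad51d, Fancc, Fancd2, Fancl, Atm, Chek1, Ung and Msh6. Of the 9 matches, 7 began within 50 bases of the transcript start, those of Bard1 and Atm lying 205 and 239 bases before it, and over all promoters 35.8% of matches began that near.

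Ratios of genes with and without the motif overlapped. The 9 genes with an E2F-type motif had a median log2 ratio of 0.10 (-0.14 to 0.43), and the 29 without one a median of 0.06 (-0.18 to 0.42). At 1.2-fold, 4 of the 9 (44.4%) and 4 of the 29 (13.8%) were higher, beside 12.6% of all named genes. Fanci, Exo1, Brip1 and Lig4 were at least 1.2-fold higher without the motif, and Fancc and Fancl carried it with log2 ratios below 0. The CHR motif (TTTGAA), a site of late cell cycle genes, was in 6 of 38 repair promoters (15.8%) and in 12 of 18 promoters of cycling markers (66.7%). It was in 18.3% of all promoters and in 9.77% of those with at least 10 CpG. The CCAAT box (CCAAT) was in 14 of 38 repair promoters (36.8%) and in 15 of 18 of cycling markers (83.3%). Its shares were 37.5% of all promoters and 35.7% of those with at least 10 CpG. An E2F-type motif was in 1 of the 18 promoters of cycling markers. No motif searched is contained in another, and a match is only a run of letters.

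**Figure D4:**
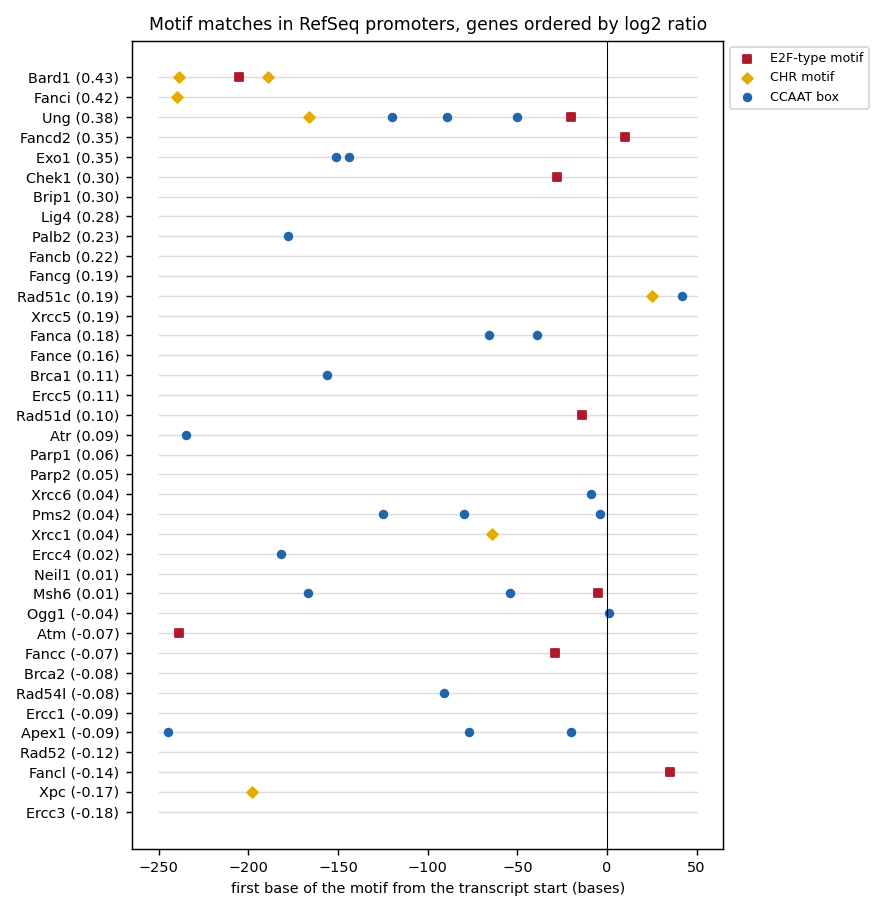
Positions of E2F-type motifs (squares), CHR motifs (diamonds) and CCAAT boxes (circles) in the promoters of 38 repair genes, in bases from the transcript start, with genes ordered from the highest log2 ratio (in parentheses) down. E2F-type motifs stood within 50 bases of the start in genes ranging from Ung (0.38) to Fancl (-0.14). Those of Bard1 (0.43) and Atm (-0.07) lay 205 and 239 bases before it.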

How the data were processed

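Per the labels, the authors made the deposited signal intensities, 1 per transcript cluster on a linear scale, with RMA (background correction, normalization between arrays and summary per cluster) in Affymetrix Expression Console 1.4.1. The array named in the study's methods differs from that of the file, and the genome build behind the clusters is not given in the sources used here. All deposited values (100%) were antilogs of numbers with 6 decimals, within 1e-08 on the log2 scale, and log2 was taken of them. RMA narrows ratios of dim transcripts and removes a change shared by most transcripts.

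Groups came from the labels. Of 68842 clusters, 23446 had 1 gene symbol in the platform annotation. Symbols were updated by gene identifier through the GRCr8 gene table for 22077 of these. The brightest cluster stood for a gene, and no signal minimum was set. With 1 array per group no test was possible and the number of arrays limits the precision. The Z score used the 500 named genes nearest in mean log2 signal. The members and lists were chosen with earlier results of these data known.

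Both signals were to be given for genes past 1.5-fold, and for each role's brightest gene and its gene farthest from a log2 ratio of 0; since 0 genes passed, they were given for all 45 genes. Of the other repair genes, the 4 highest and 4 lowest are named. Polb, the second brightest excision gene, has no promoter entry, so Ercc5 was printed. Alternatives were another scaling, loess centring (span 0.2), the mean over clusters, 2 signal minima, an offset of 16, other list borders, the mean, and Z over all genes. The steps were tested on simulated data. Python 3.11.15, pandas 2.3.3 and statsmodels 0.14.6 were used.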

Additional observations from a re-analysis of the deposited data

How the results depend on the processing

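The counts of repair genes past 1.5-fold and past the thresholds of the study were 0 in each direction under every setting tried. The recombination median lay above the excision median by 0.10 (log2), and by 0.11 with loess centring, 0.12 with either signal minimum, 0.09 with an offset of 16 and 0.10 with mismatch repair genes added to the excision genes. Centring on the median and the mean over clusters cannot change this difference, since each gene has 1 cluster and the shift is the same for all. With the Fanconi genes added to the recombination genes it was 0.16, and as a difference of means 0.08. The count of genes at least 1.2-fold higher, a bound chosen after the values were seen, was 9 (beside 12.6% of all named genes). It was 7 with loess centring (9.05% of all), 3 with the arrays centred on the median of all clusters (6.61%), 4 with a mean signal of at least 100 (6.08%), 4 with both signals at least 100 (5.56%), and 5 with an offset of 16 before the log (6.97%). With the median centring 2 genes (Ercc3 and Xpc) were 1.2-fold lower, beside 18.5% of all. That centring moves every ratio by the same amount, and the signal minima leave 34 and 33 of the 45 genes. The Fanconi median was 0.053 with both signals at least 100, over 4 genes. The medians of the kinases (-0.05), base excision (-0.06) and mismatch repair genes (-0.07) lay below 0 under the median centring; no other median changed sign. Differences among dim genes are limited by signal, and all of them by 1 array per group.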

Other observations

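Some repair routes outside recombination and excision were measured too. The 9 measured genes of direct reversal and translesion synthesis, which undo alkylation or copy past lesions, had a median log2 ratio of -0.05 (-0.15 to 0.25), with Poli lowest and Mad2l2 highest. The 9 other end joining genes had a median of -0.01 (-0.22 to 0.16), and the 3 other mismatch repair genes one of -0.03. None of these genes reached 1.2-fold in either direction, beside 12.6% of all named genes higher and 11.2% lower.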
